A study of Mus musculus with 10 samples.

Results

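Immunoglobulin variable (V) segments are the gene pieces that encode most of the antigen-binding end of an antibody chain. They were taken here as all rows of the deposited expression table whose biotype was immunoglobulin V gene, which gave 218 of 56748 genes: 113 of the heavy chain locus (Ighv), 102 of the kappa light chain locus (Igkv) and 3 of the lambda light chain locus (Iglv). Their level was read in 10 bulk RNA-seq libraries of mouse stomach tumours, each from 1 tumour. The 5 inflamed-type tumours carried the genotype Tff1-CreERT2;Apcfl/fl;Trp53fl/fl, in which a Cre recombinase that needs tamoxifen is driven by Tff1, a gene of the stomach surface, and the floxed genes are the tumour suppressors Apc and Trp53. The 5 desert-type tumours were orthotopic allografts, tumour cells placed into the stomach of a host, with wild type as the genotype and no word on whether that means the host or the graft. Tumour type, mouse model and genotype therefore coincide and cannot be told apart. The sources used here name no strain, age, immune status of the host, batch or preparation day.

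A B cell builds each antibody chain gene by joining 1 V segment to J segments (and D segments in the heavy chain) and transcribes the result together with a constant region. Each B cell clone so uses a single V segment in its heavy chain and usually a single V segment in its light chain, and plasma cells, the antibody-secreting end stage, fill much of their RNA with these transcripts. In the gut and stomach lining most plasma cells make immunoglobulin A (IgA), which the epithelium carries into the lumen. V segment reads in tumour RNA hence reflect antibody transcripts by the segment the reads were assigned to, summed over all clones. They are not a full count of these transcripts. In bulk RNA, fewer antibody-making cells and less antibody RNA per cell cannot be told apart.

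The libraries held 14148147 to 16951640 reads in genes, with inflamed and desert ranges that overlapped. FPKM, the deposited unit, is the number of fragments of a gene scaled by the gene's length and by the depth of the library. A V segment has a median length of 358.5 bases, so that 3 reads in such a segment correspond to 0.440 to 0.550 FPKM, depending on the library. Markers of stomach epithelium (Tff1, Tff2, Gkn1, Gkn2, Muc5ac, Muc6, Pgc, Atp4a and Atp4b) summed to 7775 to 42133 FPKM in inflamed tumours and to 25.1 to 56.2 FPKM in desert tumours, where Tff2, Gkn1, Gkn2 and Pgc stayed at or below 3.88 FPKM. The general epithelial genes Epcam, Krt8 and Cdh1 summed to 1638 to 3209 and 847 to 1131 FPKM. The floxed genes were read at no lower a level in the inflamed tumours, with Trp53 at 7.05 to 10.4 against 1.89 to 3.47 FPKM in desert tumours and Apc at 5.33 to 8.29 against 3.00 to 5.57 FPKM. Reads over a whole gene include exons outside a deleted part and RNA of other cells, so these values do not check the deletion.

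The sequences of the V segments with the highest mean level show what the reads were assigned to. The lines give the last 60 germline coding bases of the 10 highest segments, 5′ to 3′, with the last in-frame cysteine codon in capitals. That cysteine is the conserved residue before the third complementarity-determining loop, and the bases after it are the germline start of the loop, which joining then varies.
Iglv1: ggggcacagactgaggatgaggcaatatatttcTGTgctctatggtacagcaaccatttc
Igkv10-96: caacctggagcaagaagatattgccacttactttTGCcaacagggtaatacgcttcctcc
Igkv1-117: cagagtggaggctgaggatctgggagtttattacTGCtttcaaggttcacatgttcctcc
Igkv1-110: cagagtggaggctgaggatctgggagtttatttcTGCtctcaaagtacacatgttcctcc
Ighv3-6: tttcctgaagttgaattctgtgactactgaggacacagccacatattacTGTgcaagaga
Igkv1-135: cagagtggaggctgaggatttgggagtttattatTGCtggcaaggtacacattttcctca
Igkv3-2: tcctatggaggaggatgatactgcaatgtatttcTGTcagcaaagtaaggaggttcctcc
Ighv1-26: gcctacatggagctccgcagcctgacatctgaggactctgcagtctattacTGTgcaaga
Igkv17-127: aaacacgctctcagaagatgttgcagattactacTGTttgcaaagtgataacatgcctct
Igkv8-30: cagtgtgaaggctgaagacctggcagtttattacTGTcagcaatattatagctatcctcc
The sequences come from GENCODE M21 on GRCm38, to which all 218 segments were matched by gene identifier. A cysteine codon (TGT or TGC) lay in frame in the last 60 coding bases of 216 of the 218 segments (99.1%), against 7091 of 21769 protein-coding genes (32.6%). In 210 of the 216 it followed a tyrosine or phenylalanine codon (TAT, TAC, TTT or TTC), as in all of the lines above. The stretch after the cysteine was 23 bases in each of the 7 kappa segments printed, 24 in Iglv1, 8 in Ighv3-6 and 6 in Ighv1-26, so the heavy chain segments end just past the cysteine.

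The highest segment of all, Iglv1, lies on the minus strand of mouse chromosome 16 at chr16:19085017-19085500 in GRCm38. Its last 300 germline coding bases, with the same cysteine codon in capitals, show most of the stretch that a read could come from.
Iglv1: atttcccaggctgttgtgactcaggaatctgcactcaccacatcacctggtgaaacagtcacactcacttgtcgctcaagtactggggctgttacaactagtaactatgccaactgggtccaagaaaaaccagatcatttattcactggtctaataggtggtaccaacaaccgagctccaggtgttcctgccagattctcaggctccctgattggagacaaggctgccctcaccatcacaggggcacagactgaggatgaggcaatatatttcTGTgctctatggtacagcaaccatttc
The pair most alike among the 20 highest segments was Igkv1-117 (chr6:68121046-68121827) and Igkv1-110 (chr6:68270485-68271267), both on the plus strand. Their coding parts differ at 10 of 359 bases (97.2% identity), and the last 300 coding bases, which hold all 10, are shown with the differing bases in capitals.
Igkv1-117: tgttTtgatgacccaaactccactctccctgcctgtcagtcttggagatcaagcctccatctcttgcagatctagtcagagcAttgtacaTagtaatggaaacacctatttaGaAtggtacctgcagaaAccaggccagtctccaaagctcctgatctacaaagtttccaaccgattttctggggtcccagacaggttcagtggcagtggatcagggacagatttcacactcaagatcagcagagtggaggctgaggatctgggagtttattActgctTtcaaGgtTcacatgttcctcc
Igkv1-110: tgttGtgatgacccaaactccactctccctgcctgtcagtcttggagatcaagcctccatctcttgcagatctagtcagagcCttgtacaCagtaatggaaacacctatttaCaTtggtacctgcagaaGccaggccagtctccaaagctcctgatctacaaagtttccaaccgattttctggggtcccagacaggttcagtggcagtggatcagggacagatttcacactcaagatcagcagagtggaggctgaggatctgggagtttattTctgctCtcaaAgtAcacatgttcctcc
Of all stretches of 50 bases in these transcripts, 50.1% of those in Igkv1-117 and 49.1% of those in Igkv1-110 occur in no other immunoglobulin transcript. A read of 50 bases from either could thus often fit another immunoglobulin gene as well. The separate levels of the pair are to be read with caution for that reason. The like shares were 77.8% for Iglv1, 67.4% for Igkv10-96 and 96.7% for Ighv3-6.

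Antibody V segments were abundant in all inflamed tumours and close to absent from all desert tumours. The summed V level was 1415, 1255, 644, 431 and 643 FPKM across inflamed tumours 1 to 5 (877 ± 430 FPKM, SD, n = 5). In desert tumours 1 to 5 it was 2.55, 0.937, 0.970, 0.592 and 3.09 FPKM (1.63 ± 1.12 FPKM, SD, n = 5). The groups did not overlap, the ratio of the means was 539, and the inflamed tumours themselves ranged from the lowest in tumour 4 to the highest in tumour 1. In reads, 9218, 7822, 4161, 2441 and 3910 fell in V segments of inflamed tumours 1 to 5, and 14, 6, 6, 4 and 22 in those of desert tumours 1 to 5. V reads made up 0.0577% of the reads in genes in inflamed tumour 1 (exact 95% binomial interval 0.0565% to 0.0589%) and 0.0157% in inflamed tumour 4 (0.0151% to 0.0163%). These intervals cover counting error only. Beside the totals, the T cell markers Cd3d, Cd3e, Cd3g, Cd4, Cd8a, Trac, Trbc1 and Trbc2 summed to 13.3 to 44.1 FPKM in inflamed and 1.01 to 2.26 FPKM in desert tumours. The part of other infiltrating cells or of epithelial content in the V difference was not tested.

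**Figure D1:**
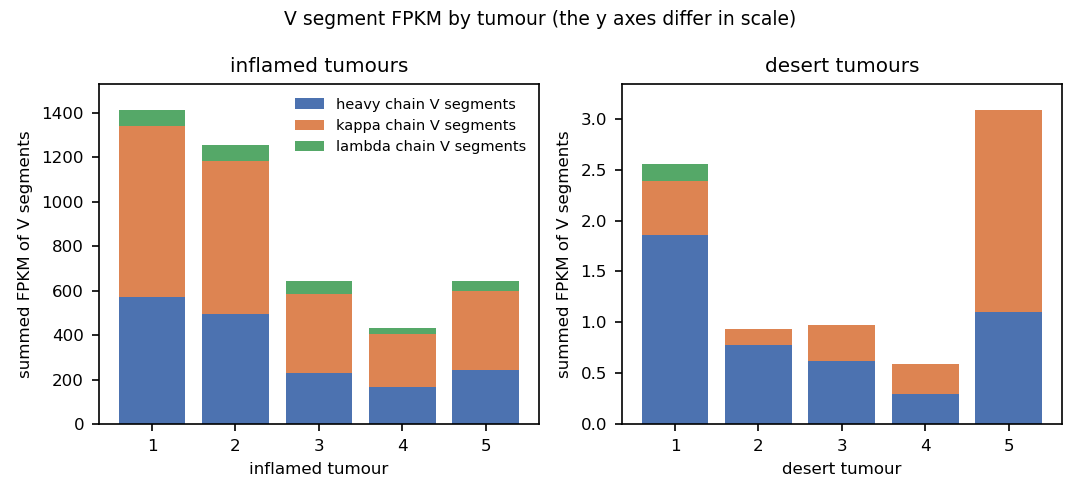
Summed FPKM of the 218 immunoglobulin V segments in each tumour, stacked by heavy, kappa and lambda chain, for tumours 1 to 5 of each group. The inflamed panel reaches 1415 FPKM and the desert panel, on its own axis, 3.09 FPKM.

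The desert reads were too few for a diversity measure. Desert tumours 1 to 5 showed 3, 3, 4, 4 and 11 segments with at least 1 read, and 23 different segments were seen in the 5 tumours together. Only 2 of the 23, Igkv6-23 and Igkv8-27, were seen in more than 1 desert tumour. In desert tumour 1, 10 of the 14 V reads fell in Ighv1-9. A single desert segment, Ighv1-62-3 with 1 read in desert tumour 5, was seen in no inflamed tumour.

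Most V segments had at least 1 read in every inflamed tumour. Segments with at least 1 read numbered 171, 170, 157, 157 and 157 in inflamed tumours 1 to 5. With at least 3 reads required, they numbered 157, 159, 137, 130 and 132. With at least 1 FPKM required, they numbered 144, 142, 117, 101 and 115 of the 218. Since the tumours differ in V reads, the number expected in a draw of 2441 V reads, the total of tumour 4, was 158 for tumours 1 and 2, 150 for tumour 3, 157 for tumour 4 and 149 for tumour 5. At a common number of reads the tumours thus lay within 149 to 158 segments. Across tumours, 129 segments were seen in all 5, and these held 95.7% of the V level. Another 57 were seen in 1 to 4 tumours and 32 in none. By locus, 61 of 113 heavy, 66 of 102 kappa and 2 of 3 lambda segments were seen in all 5 tumours. Iglv3 was at 0 in all 10 tumours, as were 4 rows that the table files as a separate class of V gene and that were not counted among the 218.

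The segments that were not seen did not stand out by sequences shared with other segments. The median share of stretches of 50 bases that occur in no other immunoglobulin transcript was 87.8% (30.6% to 100%) for the 32 segments seen in no inflamed tumour. It was 76.7% (7.49% to 100%) for the 129 segments seen in all 5. Segments with less than 50% of such stretches numbered 5 of the 32 and 18 of the 129. The sources used here do not say how reads that fit several segments were assigned.

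No inflamed tumour was led by a single segment. The highest segment held 4.77%, 5.27%, 7.86%, 6.19% and 6.73% of the V level in inflamed tumours 1 to 5. The 3 highest together held 11.95%, 13.2%, 15.5%, 17.1% and 17.3%, and the 10 highest held 29.5%, 27.1%, 31.7%, 33.3% and 36.4%. The effective number of segments, the exponential of the Shannon entropy of the shares, was 97.9, 97.6, 86.8, 86.4 and 77.4. It says how many equally used segments would give the same spread of shares. The evenness, the entropy as a percentage of its highest value for the segments seen, was 86.0% in tumour 5 and between 88.2% and 89.2% in the other tumours. In tumour 5 the 18 highest segments carried 50% of the V level, against 23 to 27 in the others. By each of these measures except the share of the highest segment, tumour 5 was the most concentrated and tumours 1 and 2 the least.

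**Figure D2:**
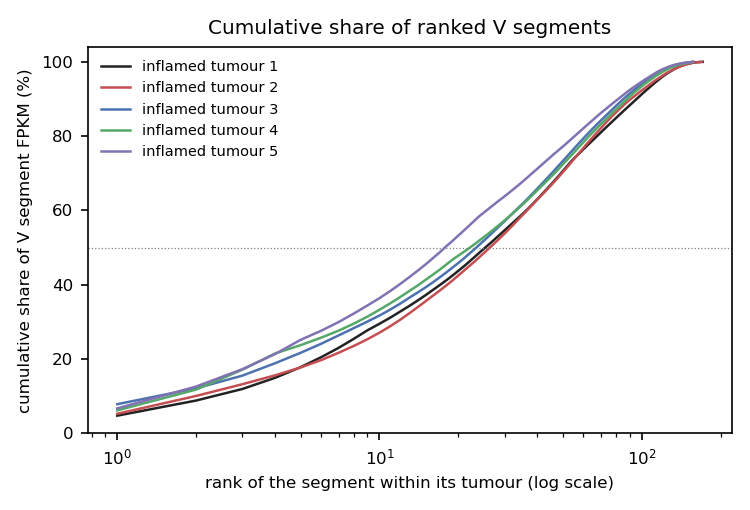
Cumulative percentage of V segment FPKM against segment rank, with segments ordered from highest to lowest within each of the 5 inflamed tumours. The curves pass the rank of 10 between 27.1% and 36.4%, with tumour 5 uppermost there.

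The heavy and kappa loci each showed a broad use of segments. Within the heavy locus the effective number was 55.7, 54.9, 46.7, 49.8 and 43.5 segments in inflamed tumours 1 to 5. The highest heavy segment held 12.3% of the heavy level in tumour 5 and 5.31% to 9.57% in the other tumours. Within the kappa locus the effective number was 47.0, 48.3, 48.5, 42.0 and 39.5, and the highest kappa segment held 7.48% to 11.1%.

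The same few light chain segments led the inflamed tumours. Igkv1-110, Igkv1-117, Igkv10-96 and Iglv1 were among the 10 highest in all 5, and Igkv1-135 in 4 of them. Beyond these, the lists of the 10 highest differed: 23 different segments entered them, and 12 entered in 1 tumour only.

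Iglv1, the main V segment of the small lambda locus, was at 67.5, 66.2, 50.6, 23.0 and 43.3 FPKM across inflamed tumours 1 to 5, at 0.167 FPKM (1 read) in desert tumour 1 and at 0 in the other desert tumours. It was the highest segment in 4 of the inflamed tumours and the third highest in tumour 4. The difference in mean log2(FPKM + 1) was 5.54 (SE 0.25, limma adjusted p = 2.37e-08). Igkv10-96, a kappa segment at chr6:68631963-68632442, was at 44.0, 60.3, 27.6, 24.2 and 24.5 FPKM and at 0 in all desert tumours. Its difference was 5.12 (SE 0.23, limma adjusted p = 2.37e-08), and it was at least 74.1-fold higher when 3 reads per library are put in place of 0.

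Igkv1-117 was at 40.3, 39.5, 21.5, 18.9 and 37.8 FPKM across inflamed tumours 1 to 5 and at 0 in the desert tumours (difference 4.96, SE 0.21, limma adjusted p = 1.45e-08). Igkv1-110, its near copy, was at 57.6, 25.01, 14.5, 26.7 and 15.8 FPKM and 0 in the desert tumours (difference 4.68, SE 0.30, limma adjusted p = 3.22e-07). The order of the pair changed between tumours, with Igkv1-110 above Igkv1-117 in tumours 1 and 4 and below it in tumours 2, 3 and 5. Against 3 reads per library, Igkv1-117 was at least 73.0-fold and Igkv1-110 at least 64.1-fold higher.

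Ighv3-6 was the highest heavy chain segment by mean level. It lies at chr12:114288152-114288582 and was at 34.6, 14.9, 21.9, 7.51 and 30.02 FPKM across inflamed tumours 1 to 5 and at 0 in the desert tumours (difference 4.34, SE 0.33, limma adjusted p = 1.06e-06). It was at least 43.6-fold higher against 3 reads per library. Ighv1-26 (chr12:114788372-114788805) followed at 18.9, 26.4, 11.2, 8.05 and 12.2 FPKM, with 1 read in desert tumour 5 (difference 3.88, SE 0.25, limma adjusted p = 3.64e-07). Its order over the tumours differed from that of Ighv3-6, with the highest level in tumour 2.

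The kappa segments Igkv1-135, Igkv3-2 and Igkv17-127 were highest in tumours 1 or 2 and lowest in tumour 4. Igkv1-135 was at 42.5, 22.0, 10.5, 8.17 and 12.6 FPKM across inflamed tumours 1 to 5, with 3 reads in desert tumour 5 as its only desert reads. Igkv3-2 was at 35.7, 17.0, 10.3, 6.43 and 10.3 FPKM, and Igkv17-127 at 20.2, 25.1, 12.6, 3.66 and 11.7 FPKM, both with 0 in the desert tumours. Their differences were 3.99 (SE 0.36), 3.85 (SE 0.35) and 3.75 (SE 0.38), with limma adjusted p of 4.40e-06, 3.94e-06 and 8.91e-06.

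Across the V segments, 140 of 218 had a mean of at least 0.5 FPKM over the 10 tumours and entered the test. Of these, 134 were higher in inflamed tumours (limma adjusted p under 0.05) and 0 were lower, against 31% of the 16750 genes tested that were higher and 31.2% that were lower. An unadjusted limma p under 0.05 also gave 0 lower, and so did limma voom on recovered reads. The highest desert mean of any segment was 0.371 FPKM (Ighv1-9), below the filter of 0.5 FPKM. A tested segment could therefore not have its higher mean in desert tumours, and the 0 lower is no separate result. A segment near 0 in desert tumours could pass the filter only through its inflamed level, so the 134 of 140 is no measure of how much of the locus changed. Of the full 218 segments, 129 had their lowest inflamed tumour above their highest desert tumour. This held for 9.22% of all genes in the table, many of them without any reads, and for 24.4% of the genes tested. With desert values almost all at 0, it restates that 129 segments were seen in all 5 inflamed tumours and is no separate result. The 6 segments tested but not called, Ighv1-36, Ighv9-4, Igkv4-50, Igkv12-89, Igkv4-58 and Ighv7-1, had limma adjusted p of 0.0512 to 0.143 and were each highest in inflamed tumour 1.

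**Figure D3:**
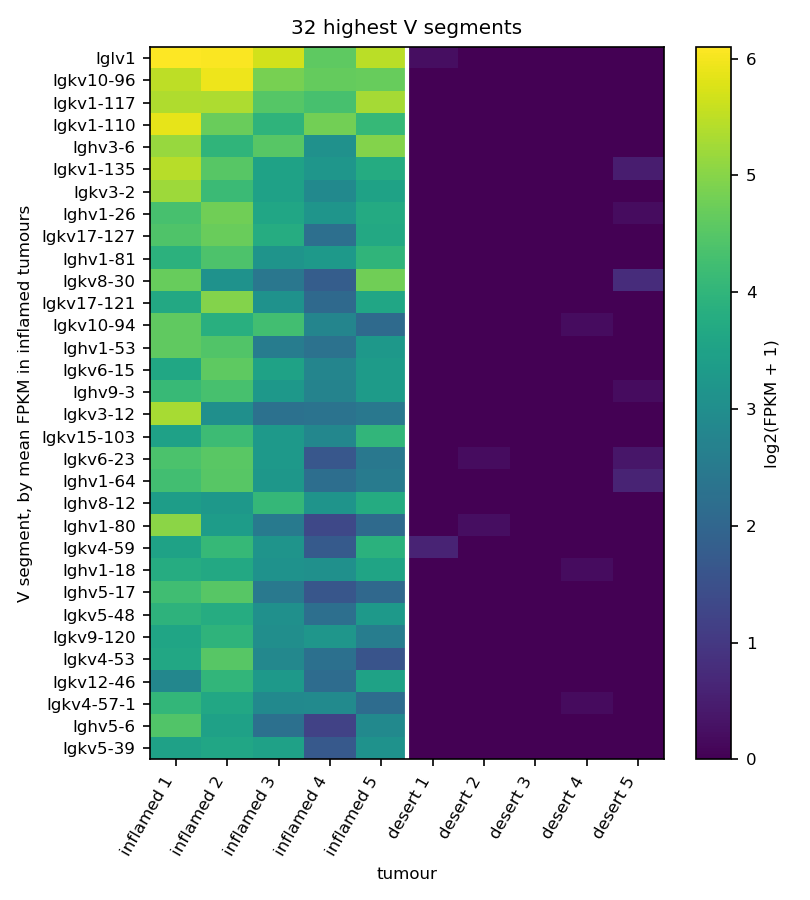
Level of the 32 V segments with the highest inflamed mean, as log2(FPKM + 1) on a colour scale from 0, with a row per segment and a column per tumour. The 5 inflamed columns are above 0 in every row and the 5 desert columns are at or near 0, where the faint Igkv8-30 cell of desert tumour 5 stands for 0.716 FPKM.

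The 3 segments with the highest desert means each owed them to 1 desert tumour. Ighv1-9 was at 1.86 FPKM (10 reads) in desert tumour 1 and at 0 in the others, beside 10.5, 8.28, 4.56, 2.81 and 1.91 FPKM across inflamed tumours 1 to 5. The lowest inflamed value was thus just above the highest desert value (difference 2.24, SE 0.42, limma adjusted p = 8.27e-04). Igkv8-30 had its desert reads, 5 of them, in desert tumour 5 (difference 3.20, SE 0.54, limma adjusted p = 3.64e-04). Ighv1-82 had 4 reads in desert tumour 2 (difference 2.96, SE 0.26, limma adjusted p = 3.12e-06).

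The inflamed tumours used similar but not equal repertoires. Summing over segments the smaller of the 2 shares, any 2 inflamed tumours had 67.1% to 77.5% of their V level in common (median 72.6% over 10 pairs). The Spearman correlation of segment levels between tumours was 0.80 to 0.88 across the 218 segments, as a description, since segments share the library and some sequence. In the heavy locus the common part was 62.0% to 76.5%, and in the kappa locus 66.1% to 80.9%.

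Some segments took a much larger share of the V level in 1 tumour than in most others. Among the 72 segments with at least 50 reads in some inflamed tumour, 29 had a highest share at least 2 times their median share, and the examples here were chosen from these after their values were seen. Ighv1-36 was at 10.7, 1.18, 0.163, 0 and 0.174 FPKM across inflamed tumours 1 to 5, with 66 of its reads in tumour 1 and 9 in the other tumours together. Igkv8-30 was at 24.8, 7.58, 4.35, 2.50 and 26.2 FPKM, which is 4.08% of the V level in tumour 5 and 0.580% to 1.76% in the others. Igkv3-12 was at 38.4, 7.27, 3.82, 4.03 and 4.42 FPKM and was high in tumour 1 alone. Ighv10-3 was at 11.4, 5.35, 2.73, 9.59 and 1.46 FPKM, so its level was highest in tumour 1, while its share was highest in tumour 4 at 2.22%, against 0.227% to 0.809% elsewhere. Ighv1-76 was at 4.63, 16.8, 0.466, 1.43 and 4.81 FPKM and reached 1.34% of the V level in tumour 2, against 0.0724% to 0.749% elsewhere. The level of Igkv8-30 was thus nearly as high in tumour 1 as in tumour 5, and only as a share did it stand out in tumour 5. Igkv3-12, Ighv1-36, Ighv10-3 and Ighv1-76 were at 0 in all desert tumours.

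V segments of similar sequence are grouped into families, given by the number after Ighv or Igkv. Ighv1, the largest heavy family with 53 of 113 segments (46.9%), held 51.5% ± 4.53 (SD, n = 5) of the heavy V level in inflamed tumours, close to its share of segments. Ighv5 held 10.7% ± 1.66 with 8.85% of the segments. Ighv3, with 5.31% of the segments, held 4.47% to 14.1%, lowest in tumour 2 and highest in tumour 5, where Ighv3-6 was high. Ighv10 held 3.61% ± 2.41 with 1.77% of the segments, and Ighv2 held 4.49% ± 1.54 with 7.96%. In the kappa locus, Igkv1 held 18.4% ± 3.75 with 9.80% of the segments, Igkv10 held 10.5% ± 2.16 with 2.94% and Igkv17 held 5.43% ± 2.01 with 1.96%. The largest kappa family, Igkv4 with 26 segments (25.5%), held 15.3% ± 2.25. Igkv3 held 8.70% ± 1.81 with 8.82% of the segments and Igkv5 held 4.86% ± 1.25 with 4.90%, so families near their share of segments were found in both loci.

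**Figure D4:**
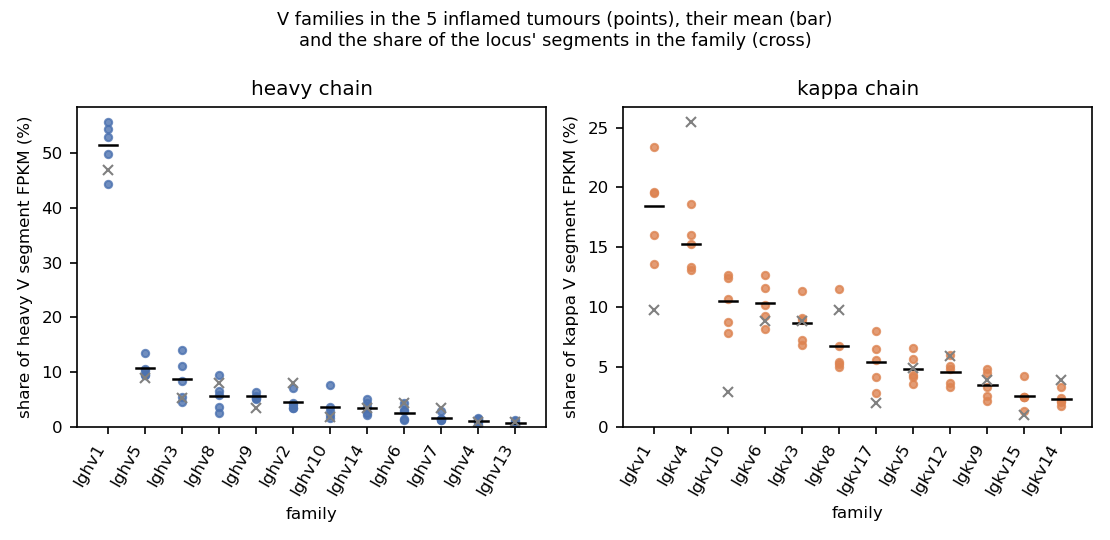
Percentage of the heavy or kappa V level held by each of the 12 highest V families, with a point per inflamed tumour, a line at the mean and a cross at the family's percentage of the segments of the locus. Ighv1 lies at 51.5% with 46.9% of the segments, while Igkv4 lies at 15.3% with 25.5%.

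Position along the locus was described by ordering the segments of each locus from the constant genes outward and dividing them into 3 groups of near-equal size. In the heavy locus the nearest group held 27.9% ± 2.39 of the level, the middle group 34.6% ± 4.61 and the farthest group 37.4% ± 3.16 (SD, n = 5). In the kappa locus these shares were 26.0% ± 1.66, 23.4% ± 3.28 and 50.5% ± 4.25. The farthest kappa group, Igkv12-89 to Igkv2-137, held 47.3% to 57.9% in each of the 5 tumours with 34 of the 102 segments, and it contains Igkv10-96, Igkv1-110, Igkv1-117, Igkv1-135 and Igkv17-127. Kappa segments lie in both orientations, and those on the plus strand held 42.4% to 52.5% of the kappa level.

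Heavy and kappa segments kept similar proportions in the inflamed tumours, while the lambda share varied more relative to its mean. The heavy share was 38.3% ± 1.84 and the lambda share 6.44% ± 1.45 (SD, n = 5). Heavy segments summed to 570, 497, 229, 165 and 244 FPKM in tumours 1 to 5, which is 35.5% to 40.3% of the V level. Kappa segments summed to 770, 689, 359, 242 and 354 FPKM, or 54.4% to 56.0%. Lambda segments summed to 74.0, 69.3, 56.2, 24.6 and 45.1 FPKM, or 5.23% to 8.74%, of which Iglv1 held 90.0% to 95.9%. Lambda was thus 10.4% ± 2.02 (SD, n = 5) of the light chain V level. It was 3.09% ± 0.643 of the light chain constant level, and the V figure exceeded the constant figure in 5 of 5 tumours. V and constant levels cannot be compared between chains here, since how reads that fit several segments were assigned is not known. The gap is therefore no measure of lambda use.

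The constant genes are transcribed together with the joined V segments. Igkc, the kappa constant gene, was at 2605, 2317, 1507, 777 and 1194 FPKM across inflamed tumours 1 to 5 and at 1.71, 2.77, 2.80, 16.0 and 2.48 FPKM across desert tumours 1 to 5 (difference 8.35, SE 0.49, limma adjusted p = 1.81e-07). Igha, the constant gene of IgA, was at 1154, 986, 690, 358 and 537 FPKM against 0.0699 to 0.684 FPKM (difference 9.04, SE 0.29, limma adjusted p = 2.15e-09). Both constant genes had their order of inflamed tumours headed by tumour 1 and closed by tumour 4, as the V total had. Igha made up 88.2% of the heavy constant level in tumour 1 and 93.2% to 95.1% in the others. Ighg2c, an IgG constant gene, was at 128 FPKM in tumour 1 and at 15.0 to 30.3 FPKM in the others. Ighm, the constant gene of IgM, was at 4.15 ± 0.680 FPKM against 0.725 ± 0.465 FPKM in desert tumours (SD, n = 5 each). In all, 9 of 13 constant genes were tested and 9 were higher in inflamed tumours, against 31% of all genes tested. Apart from Igkc and Ighm, the tested constant genes had desert means under the filter and entered the test only through their inflamed level. The count is thus no measure of how many constant genes changed.

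Per 100 FPKM of constant genes of the same chain, heavy V segments stood at 43.6, 47.8, 31.5, 43.0 and 42.5 FPKM across inflamed tumours 1 to 5. Kappa V segments stood at 29.6, 29.7, 23.8, 31.1 and 29.7 FPKM, so tumour 3 was lowest for both chains. Lambda V segments stood at 80.7, 117, 106, 132 and 94.97 FPKM. The ratios are given to compare tumours within a chain and not chains with each other.

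**Figure D5:**
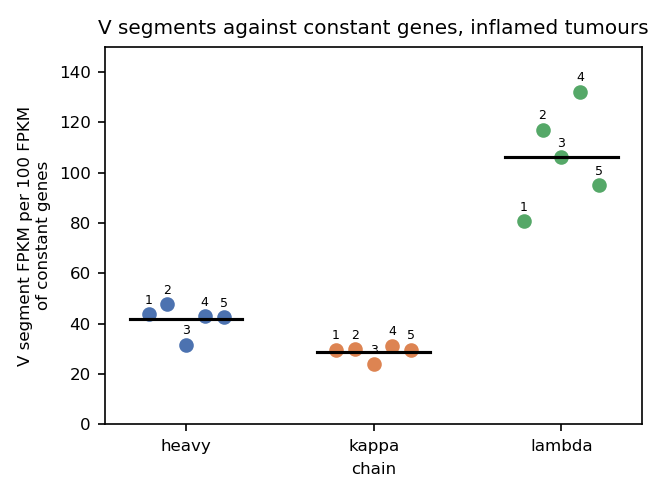
V segment FPKM per 100 FPKM of constant genes for the heavy, kappa and lambda chains, with a numbered point per inflamed tumour and a line at the mean. Kappa points lie at 23.8 to 31.1, heavy points at 31.5 to 47.8 and lambda points at 80.7 to 132.

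V rows that cannot give antibody, and the V segments of T cells, were far lower. The 158 immunoglobulin V pseudogenes summed to 1.53, 0.497, 0.693, 0.363 and 2.04 FPKM across inflamed tumours 1 to 5, from 2 to 11 reads per tumour. The 144 T cell receptor V segments summed to 10.1, 9.55, 6.83, 4.23 and 12.7 FPKM, with 11 to 28 segments seen, and to 0.306 to 1.30 FPKM in desert tumours. They too were lowest in inflamed tumour 4, but highest in tumour 5 and not tumour 1.

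The marker lists set the V segments beside the cells that carry them. Of 12 plasma cell genes, 9 were tested, 6 were higher and 2 were lower in inflamed tumours, against 31% and 31.2% of all genes tested. Jchain, which joins IgA into dimers, was at 140 ± 56.8 FPKM against 0.0402 ± 0.0401 FPKM in desert tumours (difference 6.98, SE 0.25, limma adjusted p = 4.86e-09). Sdc1, found on plasma cells and on epithelium, was at 126 ± 11.0 against 89.3 ± 4.58 FPKM (difference 0.49, SE 0.09, limma adjusted p = 5.16e-04). Fkbp11 and Tent5c fell by 1.14 and 1.27 on the log2 scale (limma adjusted p = 8.13e-06 and 6.37e-05), and both are also transcribed outside plasma cells. Xbp1, a secretory cell factor, was at 106 ± 7.95 against 88.8 ± 28.8 FPKM (limma adjusted p = 0.161).

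B cell genes were low in both groups. Of 12, 3 were tested and 2, Cd79a and Cd79b, were higher, against 31% of all genes tested. The list summed to 2.79 to 7.29 FPKM in inflamed and 1.55 to 3.10 FPKM in desert tumours. Cd79a, a part of the B cell receptor that plasma cells can keep, was at 1.75 ± 0.861 against 0.215 ± 0.0426 FPKM (difference 1.12, SE 0.19, limma adjusted p = 4.14e-04). Ms4a1, which encodes the B cell surface protein CD20, ranged from 0.0185 to 0.0425 FPKM in inflamed tumours, with 0 in all desert tumours. Rag1 and Rag2, which cut V segments during joining, were at 0 in all inflamed tumours, and none of the 6 precursor genes passed the filter. Of 6 germinal centre genes, 3 were tested, with Rgs13 higher, S1pr2 lower and Bcl6 not called. That is near the 31% higher and 31.2% lower of all genes tested.

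Most of the tested genes that bring IgA cells into mucosa, keep them there or export IgA were higher in inflamed tumours. Of 8 such genes, 6 were tested and 5 were higher, against 31% of all genes tested, and Madcam1, a vessel address molecule, was not called (1.74 ± 1.24 against 0.525 ± 0.577 FPKM, limma adjusted p = 0.0587). Pigr, the epithelial receptor that carries IgA across the cell, was at 880 ± 350 against 0.0304 ± 0.0305 FPKM (difference 9.64, SE 0.25, limma adjusted p = 5.29e-10). Ccl28, a mucosal chemokine for IgA cells, was at 4.20 ± 1.40 against 0.0231 ± 0.0182 FPKM (difference 2.31, SE 0.16, limma adjusted p = 6.61e-07). Pigr is an epithelial gene, and 7 of the 9 stomach epithelial markers given above were also higher in inflamed tumours, against 31% of all genes tested. Tff1 and Atp4a were not called (limma adjusted p = 0.0783 and 0.0956). The part of epithelial content in the Pigr difference was not tested. Pou2af1, a coactivator of octamer factors at V promoters, was at 3.91 ± 1.91 against 0.124 ± 0.133 FPKM (difference 2.04, SE 0.25, limma adjusted p = 4.35e-05). Pou2f1, a widely expressed octamer factor, fell by 0.87 (SE 0.10, limma adjusted p = 2.12e-05), from 4.46 ± 0.518 FPKM in desert to 1.98 ± 0.227 FPKM in inflamed tumours. Pou2f2, another octamer factor, lay the other way at 0.518 ± 0.197 FPKM in inflamed against 0.113 ± 0.0281 FPKM in desert tumours. It was under the filter and not tested.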

How the data were processed

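The authors deposited 1 table of FPKM for 10 libraries of total RNA, made on mm10 per the submitters' processing notes. The sources used here do not name the aligner, counter, annotation or strand. The labels' protocol speaks of 6 tumours, while the series holds 10. FPKM times gene length gave whole reads for 100% of values (tolerance 0.01), and these reads give all read numbers here. limma 3.58.1 (R 4.3.3; trend and robust) was fitted to log2(FPKM + 1), which understates the change of low genes, for the 16750 genes with a mean of at least 0.5 FPKM, two-sided, with Benjamini-Hochberg adjustment and threshold 0.05; the code was tested on simulated data. Nothing states that the tumours came from separate animals, so p-values measure the spread between these samples. Members and lists were chosen with earlier results of these data known. In every list, a gene near 0 in desert tumours entered the test only through its inflamed level, so counts called per list are descriptions. Named V segments are the 3 highest of each inflamed tumour, the 10 highest by mean and the 3 highest in desert tumours; other genes follow a rule of largest difference or highest mean per list, and any further segment or gene (Fkbp11, for example) was picked with its values known. The table's coordinates are of another build, so positions and sequences come from GENCODE M21 (GRCm38) by gene identifier. Genes most like the V total across tumours were planned but not reported, since 5 tumours are too few. Alternatives were other pseudocounts, filters, scalings, a replicate block, voom, other counts of segments seen, other diversity measures and leaving out each tumour.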

Additional observations from a re-analysis of the deposited data

Results flagged for a closer look

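Of 47 groups of 5 tumours checked, 10 held a value far from the other 4, by a gap of more than 0.71 of the range. That limit is passed in about 1 of 20 groups only if values are normally distributed and groups are not chosen by their values. Here many segments were chosen for high values. Ighv1-9, Ighv1-82 and Igkv8-30 each had reads in 1 desert tumour only, which fixes their gap in advance. The 10 of 47 therefore cannot be set against 1 of 20. Of inflamed tumour 1, Igkv1-110 at 57.6 FPKM, Ighg2c at 128 FPKM and the Igha share of heavy constant level at 88.2% stood apart. Of inflamed tumour 3, kappa V per 100 FPKM of Igkc at 23.8 FPKM and Ighg3 at 2.85 FPKM stood apart. Of the desert tumours, Ighv1-9 in tumour 1 (1.86 FPKM), Ighv1-82 (0.610 FPKM) and Ighg1 (0.318 FPKM) in tumour 2, Igkc in tumour 4 (16.0 FPKM) and Igkv8-30 in tumour 5 (0.716 FPKM) stood apart. The Igkc value in desert tumour 4 came with 0.292 FPKM of kappa V segments and 5.01 FPKM of Igkj5, a kappa J segment, against 0 to 1.40 FPKM of Igkj5 in the other desert tumours.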

How the results depend on the processing

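The count of V segments higher in inflamed tumours, 134 of 140 tested, was 24 of 24 with a mean of at least 5 FPKM required. In limma voom, where fewer segments were tested, it was 85 of 85. Segments near 0 in desert tumours enter under these settings only through their inflamed level, so neither count measures how much of the locus changed. With no filter the count was 135 of 187 tested, against 18.1% of 34466 genes. A segment then still needed a read in some tumour, and 186 had one in an inflamed tumour against 23 in a desert tumour. This count too is set by inflamed reads. It was 133 to 139 under other pseudocounts and scalings, and 122 to 135 when each tumour was left out. With a replicate block the count was 134. Same-numbered tumours did not deviate together (correlations -0.07 to 0.08, own number best for 1 of 5). Pairing by number thus did not show in these values, but a shared batch or day could not be tested. The count lower was 0 throughout, but the few desert reads left little room for any other outcome. The 12 named segments kept direction and side of the threshold in all 238 refits (limma adjusted p 1.08e-09 to 2.81e-03). Apart from Ighv1-9 and Ighv1-82, they were picked by highest inflamed levels or by means that inflamed values set. Ighv1-9 and Ighv1-82 were picked for their desert levels, but their desert means were also under the filter. The unchanged direction and calls were thus largely set by choice and filter and are no separate result. The mean inflamed V level of 877 FPKM was 2982 in TPM, another unit, and 743 to 989 FPKM with a tumour left out. The mean of 162 segments seen was 124 from 1 FPKM, 143 from 3 reads, 154 at a common number of reads, and 160 to 164 with a tumour left out. The share of the 10 highest was 30.4% to 32.7%, and the effective number 87.0 to 92.2 with a tumour left out, but 56.9 as the inverse Simpson index. Desert depth, 4 to 22 V reads, allows no repertoire measure there.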

Other observations

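Of 14 J segments, the short pieces joined to V segments, 10 were tested and 9 were higher in inflamed tumours by limma, against 31% of all genes tested. Apart from Igkj5, the tested J segments had desert means under the filter and entered the test only through their inflamed level. The count is thus no measure of how many J segments changed. Iglj3p was tested and not called (limma adjusted p = 0.130), Iglj2, Iglj3 and Iglj4 were at 0 in all 10 tumours, and the list summed to 75.7 to 197 FPKM in inflamed and 0 to 6.23 FPKM in desert tumours.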
